A study of Mus musculus with 16 samples.

Results

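The genes described here are the 33 mouse genes with the symbols Zfp900 to Zfp999 that the RNA table of the study lists, out of 25965 genes in that table. The rule for membership is the symbol alone and uses no measured value. RNA was measured by strand-specific total RNA-seq in oocytes of wild-type C57BL/6Babr mice, sorted by diameter into a smallest class of 10–30 μm, middle classes of 40–45 μm and of 50–55 μm, and a class of 60–65 μm, with 2 libraries per class, named A and B, and 1 library of fully grown germinal vesicle (GV) oocytes. DNA methylation was measured by reduced representation bisulphite sequencing (RRBS), which covers CpG-rich fragments, in 2 libraries of every class but the smallest, and by post-bisulphite adapter tagging (PBAT), which covers the genome without such selection, in 1 library of 60–65 μm oocytes. The animals were between the first and the third week after birth, with the smaller classes taken from the younger ones, and the oocytes had been washed to remove somatic cells. Each library came from pooled oocytes and nothing says that A and B came from separate animals, so p-values measure the spread between these libraries, which may be technical.

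Most proteins of this family bind DNA through an array of C2H2 zinc fingers, small folds in which paired cysteines and histidines hold a zinc ion. Many carry a KRAB domain in front of the array, which recruits the co-repressor TRIM28 and through it the histone methyltransferase SETDB1, and so silences transposable elements and other targets. The family grows by tandem duplication, so that its genes lie in clusters and resemble each other. In the growing oocyte, DNA methylation is laid down again after its loss in the germ line, largely across transcribed gene bodies, by DNMT3A with its cofactor DNMT3L.

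Not every member matched the sequence patterns searched for these domains, and lack of a match does not show that a domain is absent. In the longest coding sequence annotated for each gene in GENCODE M21, translated from the GRCm38 genome, 30 of 32 coding members held the C2H2 pattern, with 6 to 18 fingers and a median of 11 (the pattern was cysteine, 2 residues, cysteine, 12 residues, histidine, 3 to 5 residues, histidine). The 2 coding members without a match were Zfp935, whose longest annotated product has 150 residues, and Zfp957. A short signature of the KRAB box (glutamate or glutamine followed by tryptophan and, 6 to 16 residues on, leucine, tyrosine, any pair of residues and valine) was found in 30 of the 32, with Zfp956 and Zfp957 as the exceptions. Zfp939 is annotated as a transcribed pseudogene and was not searched. The 33 genes lay on 12 chromosomes, with 10 on chromosome 17 and 5 each on chromosomes 7 and 8.

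The libraries were deep, with 99369453 to 198298124 counted reads each, as recovered from the table. Levels are given as RPKM, which scales reads to gene model length and library size. Oocyte markers (Gdf9, Zp3 and 9 others) averaged 217 to 319 RPKM in every library, and blood and immune markers (6 in the table) 0.046 to 0.0961 RPKM. Granulosa markers averaged 0.182 and 0.218 RPKM at 10–30 μm and 0.674 and 0.616 at 60–65 μm, with 8 of 12 under 0.5 RPKM everywhere and Fshr between 0.0288 and 0.286. Theca and stroma markers went from 0.438 and 0.316 to 0.133 and 0.130 RPKM with 6 of 9 under 0.5, and endothelial ones from 0.228 and 0.249 to 1.20 and 1.08 with 3 of 5 under 0.5. No marker of the other cell types was at 0 in every library, and the part of these cells in the results below was not tested. In such pooled samples fewer cells and less RNA per cell cannot be told apart.

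Members spanned a wide range of levels. All but 1 had reads in all 9 libraries, and none was at 0 throughout. At 60–65 μm 7 members averaged over 5 RPKM and 10 under 1 RPKM. The summed level of the 33 genes lay between 106.3 RPKM (40–45 μm B) and 127.8 RPKM (50–55 μm A) in all 9 libraries. The main test took the 28 members that reached 0.5 RPKM in at least 2 of the 8 libraries of growing oocytes. Their median level was 2.85 RPKM at 10–30 μm and 2.86 at 60–65 μm, against 3.04 and 3.12 over the 10518 genes tested. Zfp934, Zfp941, Zfp945, Zfp948 and Zfp950 did not meet this limit and entered only the tests with a lower limit or none.

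Over the whole of growth, from 10–30 to 60–65 μm, 5 members rose and 12 fell, while 11 did not pass the test. Among the falls Zfp949 could be tested only because it was higher at 10–30 μm, and without it 16 of 27 were called, 11 of them lower. The test was limma's moderated test on log2(RPKM + 0.1) with Benjamini-Hochberg adjustment over all 10518 genes at a threshold of 0.05. Of all genes tested, 63.3% passed it, 31.5% as higher and 31.8% as lower, so that the 17 of 28 members (60.7%) stand beside a like share of all genes. By direction, 17.9% of the members rose and 42.9% fell, with Zfp949 included. The median log2 change of the members was -0.31 (-0.28 without Zfp949) against -0.00024 over all genes. Without 10–30 μm A that median was -0.09, and without 60–65 μm A -0.17. The other zinc finger genes named Zfp with a number gave 77 rises and 67 falls among 234 tested, with a median log2 change of 0.07. No test was made between these lists. The count of members moved with single libraries, as did that of all genes. Without 10–30 μm A it was 11 (4 higher, 7 lower), beside 54.1% of all genes, and without 60–65 μm A it was also 11 (5 higher, 6 lower), beside 46.3%.

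**Figure D1:**
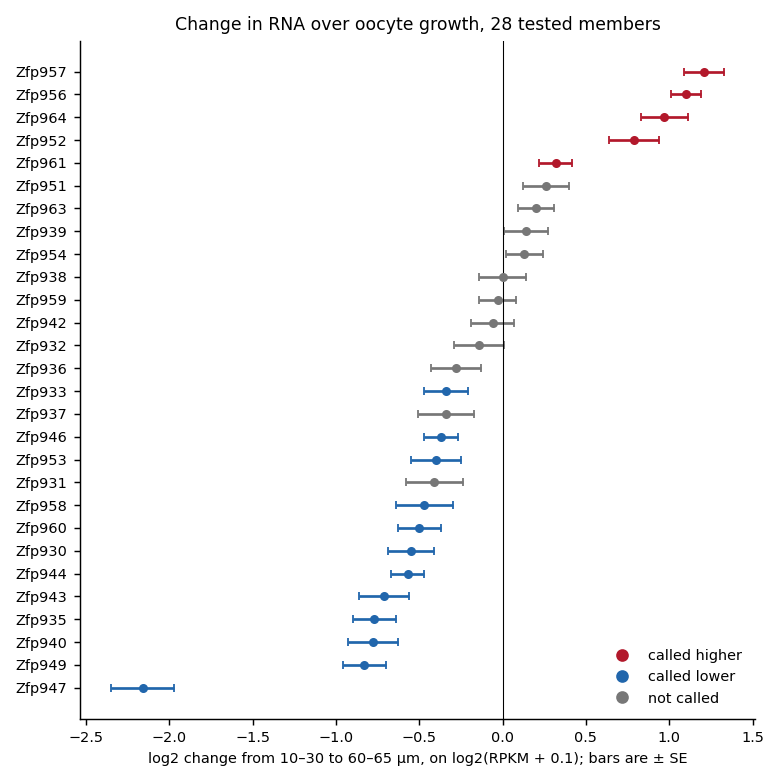
Log2 change from 10–30 to 60–65 μm oocytes (x axis, on log2(RPKM + 0.1) after scaling, bars ± SE) of the 28 tested members, sorted; red members were called higher, blue lower and grey neither. Zfp947 stands apart on the left at -2.16, and Zfp957 and Zfp956 lie on the right at 1.21 and 1.10.

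The 2 largest rises were in Zfp957 and Zfp956, the members without the KRAB signature, and they also had the highest RPKM of the members at 60–65 μm. Zfp957, on chromosome 14, measured 5.95 and 5.73 RPKM at 10–30 μm, 9.13 and 7.85 at 40–45 μm, 11.6 and 10.6 at 50–55 μm, 14.6 and 12.8 at 60–65 μm, and 15.7 in GV oocytes. No library of a later class overlapped one of an earlier class, and the log2 change was 1.21 ± 0.12 (SE, adjusted p = 7.44e-05). Zfp956, on chromosome 6, which encodes 6 fingers, measured 7.31 and 8.40, then 10.8 and 10.9, then 15.3 and 14.3, then 16.5 and 17.2 RPKM, and 15.5 in GV oocytes. Again no 2 classes overlapped, and the log2 change was 1.10 ± 0.092 (SE, adjusted p = 2.85e-05). The GV value lay below both 60–65 μm libraries.

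The other rising members encode fingers as well as the KRAB signature. Zfp964, on chromosome 8, measured 3.05 and 3.14 RPKM in the smallest class, then 4.24 and 3.55, then 6.19 and 5.81, and lastly 5.58 and 6.81 at 60–65 μm, with 5.76 in GV oocytes. Its classes were apart up to 50–55 μm and overlapped thereafter (log2 change 0.97 ± 0.14, adjusted p = 0.000396). Zfp952, on chromosome 17, stood at 2.19 and 2.19 RPKM, then 2.49 and 2.11, then 3.52 and 2.68, then 3.95 and 3.79. Its first 2 classes overlapped, and both later classes lay above them (0.79 ± 0.15, adjusted p = 0.00178). The smallest called rise was in Zfp961, on chromosome 8, with 3.99 and 4.24 RPKM at 10–30 μm and 4.94 and 5.42 at 60–65 μm (0.32 ± 0.099, adjusted p = 0.0198). That call was lost without 10–30 μm A, without 10–30 μm B and without 60–65 μm B, with adjusted p = 0.0559, 0.0553 and 0.115. Zfp961 overlaps Cyp4f18 on the opposite strand, and whether the counting used strand is not given in the sources used here.

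**Figure D2:**
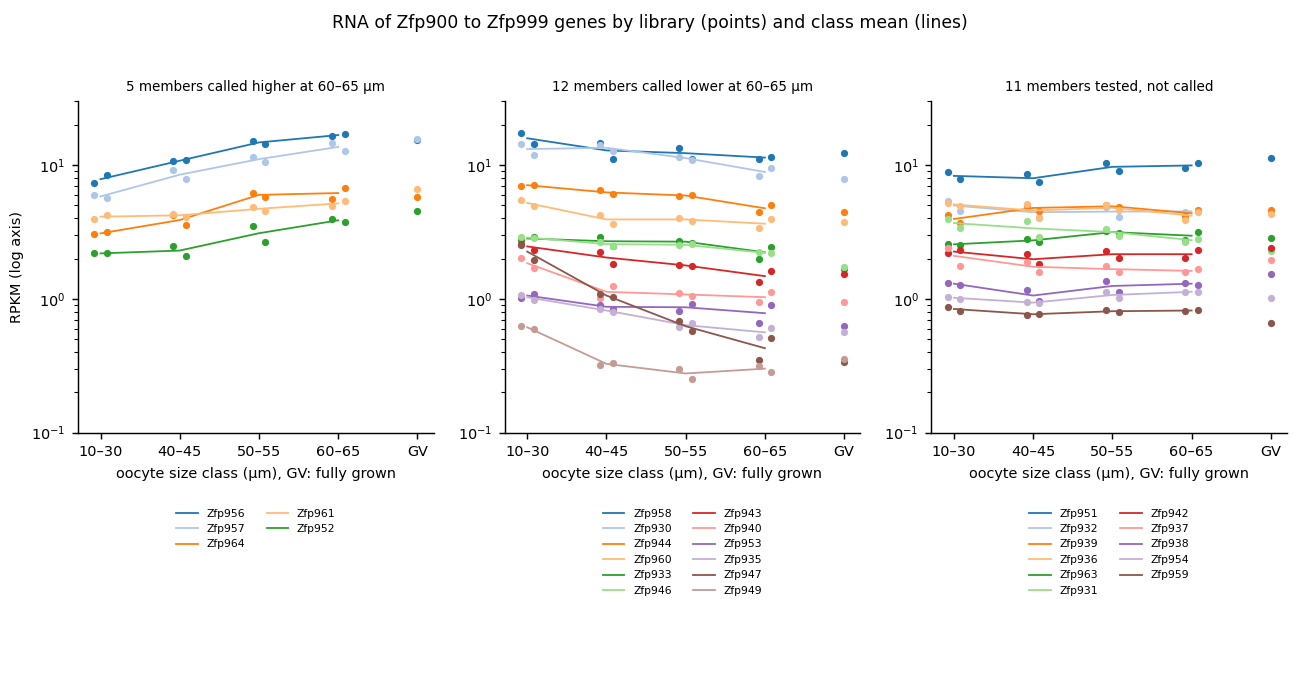
RPKM (log axis) of the 28 tested members in each library (points, A left and B right) and as class means (lines) over the 4 size classes, with the single GV library at the right; panels hold the 5 members called higher, the 12 called lower and the 11 called neither. Among the falling members Zfp947, which went from 2.55 and 1.97 to 0.348 and 0.508 RPKM, crosses Zfp940, Zfp935 and Zfp953 by class means.

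Among the 12 members that fell, Zfp947 on chromosome 17, with 9 fingers, changed most. It measured 2.55 and 1.97 RPKM at 10–30 μm, 1.08 and 1.03 at 40–45 μm, 0.678 and 0.572 at 50–55 μm, 0.348 and 0.508 at 60–65 μm, and 0.335 in GV oocytes. Every class lay below the one before it, and the log2 change was -2.16 ± 0.19 (adjusted p = 3.73e-05). Its level at 10–30 μm was thus 5.28 times that at 60–65 μm by class means. Between 105 and 901 reads stood behind each of these values.

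The next falls were smaller. Zfp949, on chromosome 9, went from 0.630 and 0.598 RPKM at 10–30 μm to 0.322 and 0.333 at 40–45 μm and stood at 0.317 and 0.285 at 60–65 μm, a log2 change of -0.83 ± 0.13 (SE). It passed the filter on low values only through its 10–30 μm libraries so that it had to be higher there, no p is given for it, and without either of these it was not tested. Zfp940, on chromosome 7, went from 2.01 and 1.69 to 1.01 and 1.25 at 40–45 μm and to 0.948 and 1.12 at 60–65 μm (-0.78 ± 0.15, adjusted p = 0.00194), and overlaps the antisense gene Gm26554. Zfp935, on chromosome 13, fell from 1.07 and 0.989 to 0.519 and 0.604 RPKM (-0.77 ± 0.13, adjusted p = 0.000929), with 58 to 167 reads per library. In Zfp940 and Zfp935, both chosen as called falls, no 60–65 μm library reached either 10–30 μm library.

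The next members were more abundant. Zfp944 fell from 7.03 and 7.16 to 4.46 and 5.07 RPKM (-0.57 ± 0.10, adjusted p = 0.00174). Zfp930 fell from 14.4 and 11.9 to 8.30 and 9.50 RPKM (-0.55 ± 0.14, adjusted p = 0.00973), a call lost without 60–65 μm A (adjusted p = 0.0905). Zfp958, the most abundant member at 10–30 μm, went from 17.3 and 14.5 to 11.2 and 11.6 RPKM (-0.47 ± 0.17, adjusted p = 0.0416) and lost its call without 10–30 μm A (-0.31, adjusted p = 0.191), without 60–65 μm A (0.176) and without 60–65 μm B (0.119). The GV library held 4.46, 7.88 and 12.4 RPKM of the 3 genes in that order.

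Zfp960, on chromosome 17, went from 5.48 and 4.95 to 3.38 and 3.93 RPKM (-0.50 ± 0.13, adjusted p = 0.0108), and this too was lost without 10–30 μm A (0.0529) or 60–65 μm A (0.102). Its identity is uncertain, because 94.2% of its exon bases have another copy in the genome at 98% identity or more over at least 100 bases, and each read was given 1 place. In no other member did that share pass 15.9%. Zfp953, on chromosome 13, fell from 1.02 and 1.09 to 0.664 and 0.900 RPKM (-0.40 ± 0.15, adjusted p = 0.0419), and its call did not survive leaving out any 1 of the 8 libraries except 60–65 μm B. Without 60–65 μm A its change was -0.19 (adjusted p = 0.322). The remaining falls were in Zfp943 and Zfp946, described with their neighbours below, and Zfp933.

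Ranking by RPKM depends on the gene models, which were short in several members. The lengths recovered with the reads were 1401 bases in Zfp958, 1356 in Zfp951, 1323 in Zfp930 and 1416 in Zfp964. The models of these genes began over 1 kb from the GENCODE M21 start, while Zfp956 and Zfp957 had 2968 and 3218 bases. By RPKM the most abundant members at 60–65 μm were Zfp956, Zfp957, Zfp958, Zfp951, Zfp930 and Zfp964. Among these Zfp951, on chromosome 5, was not called: it measured 8.82 and 7.83 RPKM at 10–30 μm and 9.48 and 10.4 at 60–65 μm (0.26 ± 0.14, adjusted p = 0.131), and without 10–30 μm B its change was 0.11 (adjusted p = 0.542). Its classes did not overlap at the ends of growth, but the 2 in between spread over 7.43 to 10.4 RPKM. At the other end stood Zfp941 on chromosome 7, with 0 to 3 reads per library and at most 0.00427 RPKM.

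Between consecutive classes fewer members passed the test. From 10–30 to 40–45 μm 5 members were called, against 23.0% of all genes tested. Zfp957 (0.60 ± 0.12, adjusted p = 0.0122) and Zfp956 (0.53 ± 0.092, adjusted p = 0.0062) were higher, with 13.2% of all genes higher. Zfp947 (-0.95 ± 0.19, adjusted p = 0.0109) and Zfp940 (-0.60 ± 0.15, adjusted p = 0.0225) were lower, with 9.76% of all genes lower. Zfp949 (-0.68 ± 0.13), whose direction the filter fixed, is the remaining call, and without it 4 of 27 members were called. The count was 2 without 10–30 μm A, where no member was called lower, and 2 without 40–45 μm A, while the share of all genes called was 11.5% and 8.19%. Zfp940 and Zfp947 lost their calls in both cases, and Zfp957 without 40–45 μm A.

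From 40–45 to 50–55 μm 2 members were called, against 8.72% of all genes, both as higher (5.27% of all genes were higher and 3.45% lower). They were Zfp964 (0.58 ± 0.14, adjusted p = 0.0394) and Zfp956 (0.40 ± 0.092, adjusted p = 0.0352). The count was 1 without 40–45 μm A (5.17% of all genes). It was 0 without 40–45 μm B and without 50–55 μm A, where 0 of all genes were called by limma, and 0 without 50–55 μm B (2.45% of all genes) and without either 60–65 μm library (3.74% and 3.72%). It was also 0 with no limit on low values, where 561 of 20052 genes were called. With the replicate letter as a block it was 5 (4 higher, 1 lower), where all genes gave 1877 calls in place of 917. From 50–55 to 60–65 μm limma called 0 members and 0% of all genes, with 3 members at an unadjusted p under 0.05. On the recovered reads edgeR and DESeq2 also called 0 members in this step, with 3 at an unadjusted p under 0.05 by each. Of all genes 1440 had such a p by limma, and after adjustment edgeR called 0 and DESeq2 254.

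The 2 libraries of a class differed in a patterned way in these genes. Library A lay above library B in 23 of 33 members at 10–30 μm, in 27 at 40–45 μm, in 26 at 50–55 μm and in 8 at 60–65 μm. Over all tested genes the shares with A above B were 41.7%, 41.7%, 51.0% and 51.4%. Thus in the first 3 classes most members ran higher in A, and at 60–65 μm most ran higher in B. The comparison of 10–30 with 60–65 μm therefore set a class with most members higher in A against one with most members lower in A, and the counts without these libraries are given above.

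The GV library has no replicate, and no test was made with it. It lay above both 60–65 μm libraries in 10 members, below both in 15 and between them in 8. Over all tested genes 35.1% lay above and 46.2% below. The median ratio of GV to the 60–65 μm mean was 1.01 in tested members and 0.975 in all tested genes. Zfp961 was at 6.61 RPKM in GV oocytes against 4.94 and 5.42, while Zfp933 was at 1.66 against 2 and 2.46.

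A group of 7 members lies within 1300 kb of chromosome 17 (chr17:21567046-22867134, GRCm38), in the order Zfp948, Zfp942, Zfp943, Zfp947, Zfp944, Zfp946 and Zfp945. Of the 5 that were tested 4 fell and none rose, beside the 31.8% of all genes that fell and the 31.5% that rose. Without either 60–65 μm library Zfp946 lost its call. Zfp942 was the exception, with 2.19 and 2.32 RPKM at 10–30 μm and 2.01 and 2.31 at 60–65 μm (-0.06 ± 0.13, adjusted p = 0.69, and 0.05 without 60–65 μm A). Its neighbour Zfp943 starts 87 bases away in the opposite direction and went from 2.59 and 2.34 through 2.24 and 1.83, and 1.80 and 1.77, to 1.33 and 1.63 RPKM (-0.71 ± 0.15, adjusted p = 0.00386). Whether the changes of the 2 genes differ was not tested. Zfp943 overlaps 6 annotated genes of the opposite strand.

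Beyond that pair, Zfp946 went from 2.90 and 2.86 to 2.23 and 2.19 RPKM, and to 1.72 in the GV library (-0.37 ± 0.10, adjusted p = 0.0119, and 0.0638 or 0.0708 without 60–65 μm A or B). The genes at the ends of the row did not meet the limit for the main test. Zfp945, which encodes 18 fingers, measured 0.409 and 0.397 RPKM at 10–30 μm, 0.192 and 0.199 at 40–45 μm, 0.143 and 0.158 at 60–65 μm and 0.0892 in GV oocytes, without overlap between the first class and any later one. With the limit lowered to 0.1 RPKM, its log2 change to 60–65 μm was -0.99 ± 0.12 (limma, adjusted p = 0.000143). Zfp948 measured 0.489 and 0.573 RPKM at 10–30 μm, 0.404 and 0.464 at 60–65 μm and 0.226 in GV oocytes. Zfp942, Zfp945, Zfp946 and Zfp948 were singled out after their RNA values were seen, as was Zfp933.

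**Figure D3:**
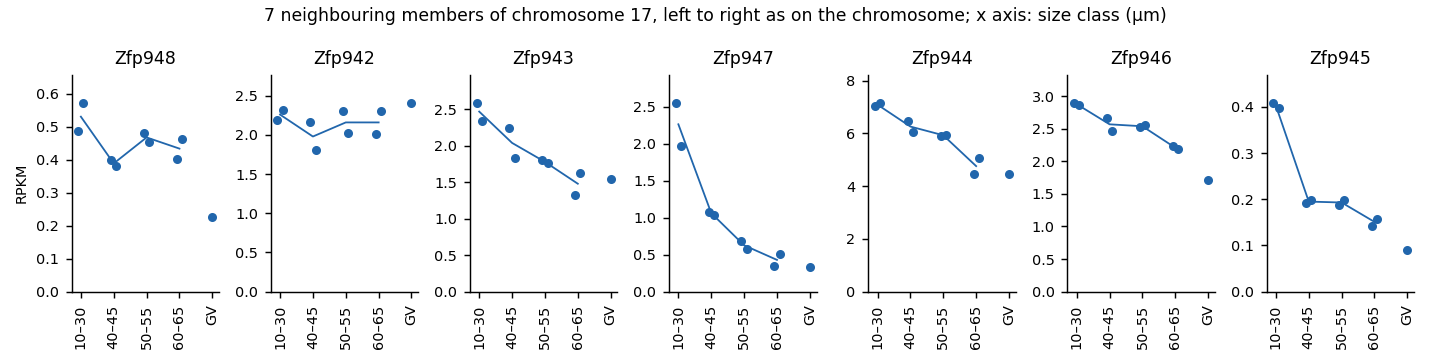
RPKM (y axis, from 0, a scale for each gene) of 7 neighbouring members of chromosome 17 in each library (points) and as class means (lines) over the size classes in μm and the single GV library. In proportion, Zfp947 and Zfp945 drop most between 10–30 and 40–45 μm, while Zfp942 stays between 1.81 and 2.41 RPKM in all 9 libraries.

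Stretches of the start regions of this row are shown because several share sequence. In the 300-base promoters of RefSeq (250 bases before to 50 after the start, GRCm38.p6), 5 of the 7 held the palindrome CACGTG, as did 6 of 30 member promoters (20%), 5.33% of those of other zinc finger genes and 7.15% of all 32851 promoters. The motif was chosen after these sequences were seen, and it reads alike on both strands, so 1 search covers both. A match describes letters and not a bound site. The promoters of Zfp942 and Zfp944 share an identical run of 207 bases, and Zfp942 and Zfp943 share the same motif between their starts. In the 40-base windows the motif is in capitals.
Zfp942, chr17:21962496-21962535, minus strand: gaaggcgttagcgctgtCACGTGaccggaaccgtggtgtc
Zfp943, chr17:21962496-21962535, plus strand: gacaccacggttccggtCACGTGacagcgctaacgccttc
Zfp944, chr17:22361407-22361446, minus strand: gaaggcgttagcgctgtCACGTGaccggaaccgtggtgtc
Zfp946, chr17:22424175-22424214, plus strand: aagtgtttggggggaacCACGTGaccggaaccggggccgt
Zfp947, chr17:22166026-22166065, minus strand: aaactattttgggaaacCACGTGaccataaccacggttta
Zfp933, chr4:147848506-147848545, minus strand: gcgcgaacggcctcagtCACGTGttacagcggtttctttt

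The window of Zfp944 is the same as that of Zfp942 in all 40 bases. Zfp933, on chromosome 4, is the member outside the row that holds the motif, and it went from 2.78 and 2.88 to 2 and 2.46 RPKM (-0.34 ± 0.13, adjusted p = 0.0498). Without 60–65 μm A that change was -0.18 (adjusted p = 0.354), and the call was also lost without either 10–30 μm and without either 50–55 μm library. Zfp948 and Zfp945 hold no match in this window.

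By PBAT, gene starts of members carried little methylation at 60–65 μm. A gene start was taken as 1 kb either side of the start in the RNA table, and its level as the mean over CpG cytosines with at least 5 reads where at least 5 such positions were found. The median over the 24 members measured was 3.63%, beside 3.87% over 19669 genes and 3.64% over 295 other zinc finger genes. Among them Zfp964 at 79.8% (6 positions) and Zfp930 at 45.3% (16 positions) stood at 25% or more (2 of 24), as did 6.00% of all genes.

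Both high values belong to starts that lie inside the annotated gene. For 8 members the table's gene model began over 1 kb from the GENCODE M21 start, and for Zfp964 and Zfp930 the gap was 4784 and 17305 bases. At the GENCODE start Zfp964 was at 2.25% over 44 positions and Zfp930 at 13.4% over 12. With that start and with all calls pooled, all 33 members could be measured, from 1.30% (Zfp948, 4 of 307 calls, Wilson 95% interval 0.508 to 3.30%) to 16.5% (Zfp957, 14 of 85 calls, 10.1 to 25.8%). None reached 25%, beside 6.59% of all 20635 genes so measured. The intervals cover counting error only, and calls from 1 read are not independent.

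Promoters of 4 members show the range of CpG content behind these levels, with each CpG in capitals. By means over at least 5 positions, Zfp959 had the highest start methylation among members whose table start lies within 1 kb of a RefSeq promoter and Zfp946, like Zfp935, the lowest mean (0%), Zfp964 is the gene with a table start inside the gene, and Zfp957 is the member that rose most. They hold 14, 12, 24 and 4 CpGs, against a median of 9 over 30 members with a promoter in RefSeq and 7 over all promoters (quartiles 3 and 20), of which 94.6% hold at least 1.
Zfp959, chr17:55891843-55892142, plus strand: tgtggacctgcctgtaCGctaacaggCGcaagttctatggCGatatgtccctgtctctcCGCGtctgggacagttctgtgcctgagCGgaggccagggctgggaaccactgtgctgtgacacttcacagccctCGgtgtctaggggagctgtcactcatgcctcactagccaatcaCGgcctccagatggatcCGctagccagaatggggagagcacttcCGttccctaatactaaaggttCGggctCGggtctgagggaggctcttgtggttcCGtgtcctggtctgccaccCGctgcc
Zfp946, chr17:22423952-22424251, plus strand: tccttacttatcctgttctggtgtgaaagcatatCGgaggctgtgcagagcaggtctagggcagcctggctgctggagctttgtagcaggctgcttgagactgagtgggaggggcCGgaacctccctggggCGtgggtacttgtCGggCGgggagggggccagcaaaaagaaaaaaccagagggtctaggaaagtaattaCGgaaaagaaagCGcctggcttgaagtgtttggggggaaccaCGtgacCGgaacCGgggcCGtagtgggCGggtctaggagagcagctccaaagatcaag
Zfp964, chr8:69654306-69654605, plus strand: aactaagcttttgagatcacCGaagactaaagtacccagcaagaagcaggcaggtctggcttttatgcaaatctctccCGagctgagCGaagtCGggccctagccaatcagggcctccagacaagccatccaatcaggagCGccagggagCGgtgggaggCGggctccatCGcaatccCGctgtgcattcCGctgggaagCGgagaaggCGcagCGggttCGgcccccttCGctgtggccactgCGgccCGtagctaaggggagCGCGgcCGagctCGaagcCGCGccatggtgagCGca
Zfp957, chr14:79247318-79247617, minus strand: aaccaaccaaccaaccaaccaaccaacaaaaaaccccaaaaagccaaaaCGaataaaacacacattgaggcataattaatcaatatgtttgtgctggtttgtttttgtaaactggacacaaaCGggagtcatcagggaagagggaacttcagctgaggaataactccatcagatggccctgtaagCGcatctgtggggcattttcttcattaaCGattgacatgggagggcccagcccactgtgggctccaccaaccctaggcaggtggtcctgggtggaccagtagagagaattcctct

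Within these 300 bases PBAT gave 44 methylated of 360 calls in Zfp959 (12.2%, 9.23 to 16%), 1 of 69 in Zfp946 (1.45%, 0.256 to 7.76%) and 3 of 235 in Zfp964 (1.28%, 0.435 to 3.69%). For Zfp957 only 14 calls fell in the window, 1 of them methylated (7.14%, 1.27 to 31.5%). The interval of Zfp959 lies above those of Zfp946 and Zfp964, and that of Zfp957 is too wide to place it.

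RRBS reached the starts of 8 members in all 6 libraries, and no value passed 6.4%, beside medians of 0.383% to 0.632% over all genes measured in each. The shared start region of Zfp942 and Zfp943 was between 0% and 0.287% in the 6 libraries. Zfp946 was at 2.37% and 4.40% in 40–45 μm oocytes, 2.07% and 1.45% at 50–55 μm, and 1.01% and 1.63% at 60–65 μm. Zfp933 held the highest value, in 50–55 μm B, beside 1.42% in 50–55 μm A and 0.965% and 1.5% at 60–65 μm. The start of Zfp947, whose RNA fell most, was at 0% in 5 libraries and at 1.11% in 60–65 μm A. An exact permutation test of 2 libraries against 2 cannot give a p below 0.333, and no other test between classes was run.

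Gene bodies ranged from nearly free of methylation to heavily methylated. The body was taken from 1 kb past the start to 2 kb before the end, in genes of at least 4 kb with at least 10 positions. The median over 19 members was 48.5%, beside 27.3% over 16627 genes and 33.4% over 259 other zinc finger genes, and 9 of 19 members (47.4%) were at 50% or more against 27.6% of all genes. With the GENCODE genes the median over 24 members was 42.4%, beside 25.9% over all genes, and 8 of 24 (33.3%) were at 50% or more against 26% of all genes.

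Highest were Zfp933 at 76.8% (57 positions, 654 of 917 calls methylated), Zfp963 at 75.7% (19 positions), Zfp946 at 67.2% (35), Zfp938 at 66.9% (11) and Zfp942 at 65.0% (32). Lowest were Zfp941 at 5.00% (18 positions), Zfp961 at 16.7% (81), Zfp953 at 17% (38), Zfp937 at 21.7% (18) and Zfp943 at 21.9% (165). For Zfp953 this depends on the gene model, since its GENCODE gene is shorter and gave 36% with pooled calls (30.3 to 42.2%) against 21.8% with the table's. Thus the divergent pair Zfp942 and Zfp943, which share a start region at 3.71% (42 positions), lay far apart in their bodies, with pooled levels of 67.1% (62.8 to 71.0%) and 21.1% (19.6 to 22.8%). Zfp943 spans 108617 bases and Zfp942 35505, and annotated genes of the other strand lie inside the longer one.

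**Figure D4:**
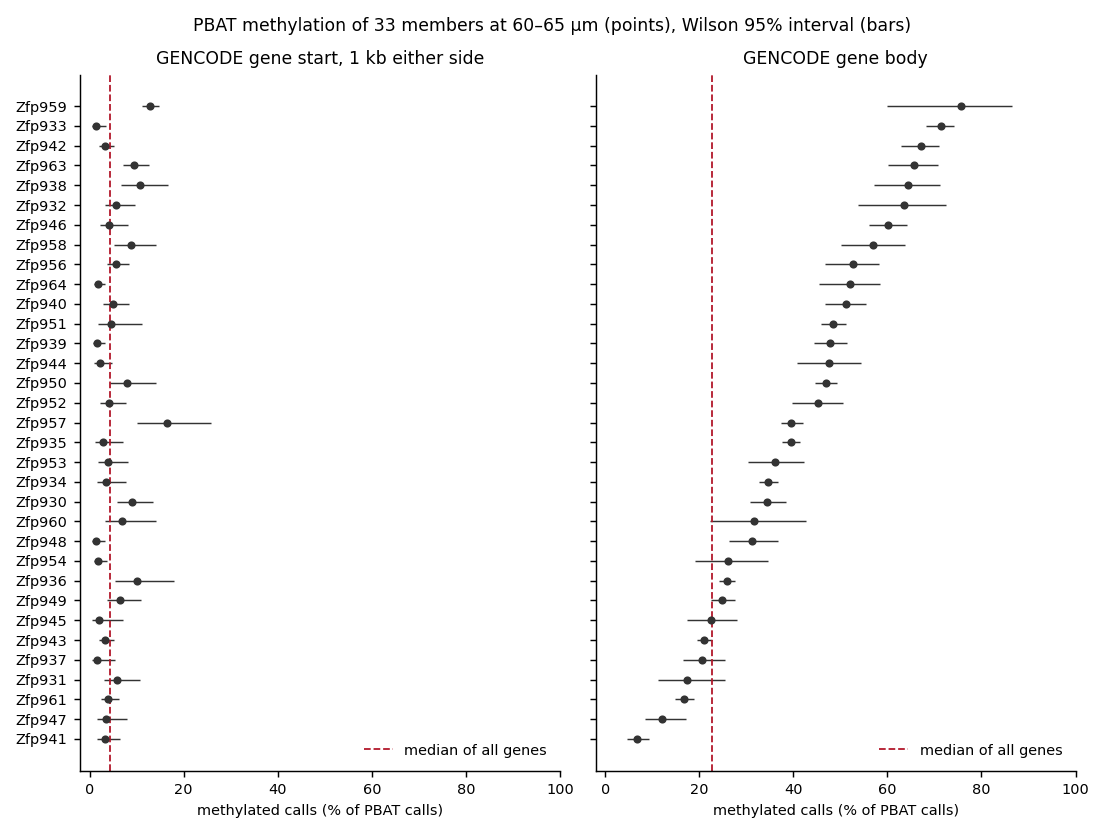
Share of methylated calls in the 60–65 μm PBAT library (x axis, %) at the GENCODE gene start (left) and in the gene body (right) of the 33 members, sorted by the body; bars are Wilson 95% intervals and the dashed lines are the medians of all genes (4.31% and 22.8%). Starts stay at or under 16.5%, while bodies run from 6.67% in Zfp941 to 75.7% in Zfp959. The value of Zfp959 rests on 37 calls (59.9 to 86.6%), and Zfp933 follows at 71.3% of 917 calls.

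Body methylation was then set beside RNA. Over 26 members with at least 20 pooled calls, the rank correlation of body methylation with the 60–65 μm level was 0.33 (Pearson 0.45 with log2 level), and over 18908 genes it was 0.62 (0.60). These are correlations across genes, which are not independent and here share 1 methylation library, and the sets span unlike ranges, with 7980 of the 18908 genes but 1 of the 26 members under 0.1 RPKM. Zfp941, with almost no reads, had a body of 6.67%, near the median of 8.49% over the 7980 genes under 0.1 RPKM. Of the 15 members between 1 and 5 RPKM the median was 50.1%, like the 50.5% of all 4226 such genes.

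Zfp961 was low for its level: at over 5 RPKM its body was at 16.8% (215 of 1280 calls, 14.8 to 18.9%), while the quartiles of the 3329 genes in that range were 33.8% and 56.6%. Zfp947, at 0.348 and 0.508 RPKM by then, was at 12.1% (26 of 214 calls, 8.43 to 17.2%). By call, the 4 rising members with a value had a median body of 42.4% (16.8 to 52.6%), the 10 falling ones 39.6% (12.1 to 71.3%), and the 9 tested but not called 59.6% (17.3 to 67.1%), so that the ranges overlapped widely.

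Over the last 2 kb of the gene, 8 members were measured, with a median of 40.2% beside 23.2% over 10957 genes. In the last 1 kb alone the median was 26.3% over 5 members, beside 21.2% over 6701 genes. Zfp963 (71.5%, 6 positions) and Zfp954 (70.6%, 28 positions) were highest, followed by Zfp953 at 54.8% (6), Zfp956 at 49.0% (48) and Zfp939 at 31.4% (9). For Zfp953 and Zfp939 the end depends on the gene model. With pooled calls Zfp953 was at 47.3% with the table's end and 36.4% with the GENCODE end (8 of 22 calls). Zfp939 was at 35.9% and 21.7% (5 of 23 calls). At the low end Zfp961 was at 0% over 6 positions, with 2 of 104 pooled calls methylated (1.92%, 0.529 to 6.74%), below Zfp933 at 23.9% (6) and Zfp957 at 28.1% (22). Zfp961 was thus low in its body and at its end, and Zfp933 was high in its body and lower at its end.

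A list of 30 symbols with 31 entries in the table held co-repressor and heterochromatin factors of KRAB silencing, DNA methylation factors, and other KRAB zinc finger genes. Of the 30 entries tested, 13 rose and 7 fell from 10–30 to 60–65 μm (66.7%, beside 63.3% of all genes). Without 60–65 μm A this was 11 (7 higher, 4 lower), and without 10–30 μm A 13 (8 higher, 5 lower), beside 46.3% and 54.1% of all genes. Trim28, the co-repressor, rose from 18.0 and 22.8 to 31.3 and 30.6 RPKM (0.61 ± 0.11, adjusted p = 0.0014), and Setdb1 from 11.7 and 13.0 to 20.1 and 18.8 (0.65 ± 0.091, adjusted p = 0.000375). Zfp57, a KRAB zinc finger protein that protects imprints, rose from 50.4 and 59.5 to 81.0 and 80.7 RPKM (0.56 ± 0.11, adjusted p = 0.00239), above every one of the 33 members.

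Among the called entries Dnmt3l, the cofactor of DNA methylation, changed most, from 0.825 and 0.888 to 11.3 and 8.25 RPKM (3.35 ± 0.19, adjusted p = 6.91e-06). The histone variant chaperone gene Daxx (0.89 ± 0.10) and the SETDB1 partner Atf7ip rose as well, the latter by 0.75 ± 0.25 and 0.80 ± 0.16 in its 2 entries. Without 10–30 μm A these were 0.39 (limma, adjusted p = 0.18) and 0.52 (0.00587), and without 60–65 μm A the first was 0.60 (0.152). Cbx3, which encodes a heterochromatin protein of the HP1 type, fell from 1.70 and 1.98 to 0.477 and 0.594 RPKM (-1.61 ± 0.13). On log2(RPKM + 1), which compresses low levels, its change was -0.88. Hdac1 (-1.24 ± 0.16) and Dppa3 (-1.20 ± 0.16), a maternal factor, also fell. The end classes did not overlap in any of these entries.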

How the data were processed

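RNA values were deposited as RPKM per gene, made by the authors from reads trimmed with Trim Galore 0.2.8 and aligned to GRCm38 with TopHat2 2.0.9 at 1 place per read. The study names Cufflinks for expression as FPKM, SeqMonk for analysis, and a reference and an oocyte transcriptome. Which of these made the deposited RPKM, and whether strand was used in counting, is not given in the sources used here. Methylation was deposited as methylated and unmethylated counts per cytosine, called by the authors with Bismark 0.14.0 (RRBS) and 0.10.0 (PBAT, duplicates removed) after Trim Galore 0.3.5, together with a percent per position.

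Here RPKM of the 4 size classes was scaled by a trimmed mean of log ratios, a pseudocount of 0.1 RPKM was added, and log2 values of the 10518 genes at 0.5 RPKM or more in at least 2 of 8 libraries were fitted in 1 model with limma 3.58.1 (R 4.3.3), with Benjamini-Hochberg adjustment over all of them. RPKM steps gave whole reads (99.145 to 100% of low single-exon values were whole within 0.05), and edgeR 4.0.16 and DESeq2 1.42.0 were run on these as alternatives chosen after seeing the data, as was the use of GENCODE M21 genes. Recovered totals were 99369453 to 198298124 reads per library, where mates may count singly. In simulated data for 10–30 against 60–65 μm, 170 of 200 genes changed by 1 on the log2 scale were found among 10518 genes, with 7 false calls. The simulated libraries varied independently and only these 200 genes changed. In the real data 63.3% of genes were called, and A minus B correlated between the smaller classes. The 7 false calls are thus no error rate for the real data. Intervals are Wilson 95% intervals. The PBAT library held 99039028 calls at a median of 2 per position, so short regions rest on few calls.

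The range of symbols, the gene lists and the alternatives were chosen with earlier results of these data known. The genes described singly were the tested members called between 10–30 and 60–65 μm, up to 10 in each direction by size of change, the 6 most abundant at 60–65 μm, those called between consecutive classes, and the 5 highest and 5 lowest in body and end methylation. Zfp933, Zfp942, Zfp945, Zfp946 and Zfp948 were added after their RNA values were seen. Copies in the genome were sought with BLASTN 2.17.0.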

Additional observations from a re-analysis of the deposited data

How the results depend on the processing

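From 10–30 to 60–65 μm, 15 to 18 members were called under other filters, pseudocounts, scalings and tools, and 11 to 17 when 1 library was left out. From 10–30 to 40–45 μm the count ran from 2 to 6 without 1 library. The shares of all genes beside the lowest of these counts without 1 library are given above. Calls over all genes moved with the other settings too. From 10–30 to 60–65 μm, no filter on low values gave 15 of 33 members, beside 9309 of 20052 genes. A limit of 0.1 RPKM gave 18 of 32, beside 8325 of 13134. The remaining settings with all libraries gave 16 to 18 of 28 members, beside 6164 to 7280 of 10518 genes. From 40–45 to 50–55 μm the count of members was 0 with no filter on low values, beside 561 of 20052 genes. With the replicate letter as a block it was 5 (4 higher, 1 lower), beside 1877 of 10518 genes. Leaving out 1 library moved this count of members too, as given above. From 50–55 to 60–65 μm it was 0 under every setting run. The block gave 5 member calls from 10–30 to 40–45 μm, where all genes gave 3330 calls in place of 2415. It gave 0 from 50–55 to 60–65 μm (240 genes in place of 0) and 18 over the whole of growth (7280 genes in place of 6662). No source says what the letters stand for. The difference A minus B over genes correlated at 0.589 to 0.670 among the 3 smaller classes and at -0.227, -0.026 and 0.113 between these and 60–65 μm, so that the letters ran together in the smaller classes and not with the largest. Leaving out Zfp949, whose direction the filter fixed, of 432 alternative values of log2 changes in 18 members, 381 kept their direction and side of the threshold and 50 lost the call, 9 of them in Zfp953 and 9 in Zfp933, from 10–30 to 60–65 μm. Zfp942, which was not called, ran from -0.15 without 60–65 μm B to 0.05 without 60–65 μm A. With a pseudocount of 1 RPKM, which compresses low levels, the changes over the whole of growth were -1.18 in Zfp947, -0.48 in Zfp940, -0.37 in Zfp935, -0.31 in Zfp949 and -0.21 in Zfp953.

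Median methylation by PBAT moved as follows. At gene starts it was 4.95% with at least 1 read per position. In bodies it was 40.8% with at least 3 reads, 41.5% with at least 1 read, 42.4% with pooled calls and 42.4% with GENCODE genes. Over the last 2 kb it was 45.8% with at least 1 read, 26.3% in an end window of 1 kb (5 members) and 49.0% with GENCODE genes (7 members). By RRBS the median over starts was 0.398% at 40–45 μm, and 0.0546% and 0.325% without A and without B. At 50–55 μm it was 0.255%, and 0.0567% and 0.389%. At 60–65 μm it was 0.890%, and 0.0962% and 0.910%. The cause of these shifts was not tested. Few calls limit the PBAT values of single promoters.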
